A study of Mus musculus with 17 samples.

Results

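The comparison described here is dorsal against lateral wall of the mouse subventricular zone (SVZ) at 7 days after electroporation, taken as the difference between the 2 colours of each of the 3 arrays of that time point, out of 17 arrays in the series. CD1 mice, with a stage given as P1, were electroporated in vivo so that progenitors in either the dorsal or the lateral wall carried GFP, and GFP-positive cells were sorted by FACS later. The 6 time points were 8 hours and 1, 2, 4, 7 and 14 days, with 2, 3, 2, 3, 3 and 4 arrays. On every array dorsal cDNA was in Cy3 and lateral cDNA of that time in Cy5; the labels name the molecule as polyA RNA for Cy3 and total RNA for Cy5, and both were amplified by PCR. All groups thus shared strain, stage and electroporation, and differed in the wall targeted and the time of collection. The number of animals behind a sample and their sex are not given in the labels, in which a time point's arrays are biological replicates. The dyes were never swapped, so a dye effect and the wall difference cannot be told apart at 7 days alone; an effect of the dye that is constant over time cancels when 7 days is compared with the other times.

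The SVZ lines the lateral ventricle and keeps dividing progenitors after birth. Its progenitors give rise to neuroblasts that migrate along the rostral migratory stream and become inhibitory interneurons of the olfactory bulb, and also to astrocytes, oligodendrocytes and ependymal cells. The lateral wall descends from the subpallium, marked by Dlx and Gsx factors, and the dorsal wall from the pallium, marked by Emx, Pax6 and neurogenin factors, and the walls feed different interneuron types. In sorted populations, fewer cells of a type and less RNA per cell cannot be told apart.

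Of 26448 genes tested at 7 days, 7 passed an adjusted p of 0.05 in limma, which is 0.0265%. Of these, 6 were higher in the dorsal sample (0.0227% of genes) and 1 was lower (0.00378%). Of the 6, 3 were neighbouring cytochromes P450 of the Cyp2 family, detoxifying enzymes that are abundant in the lining of the nose. The first part of this account therefore shows what these probes measure.

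The Cyp2a4 and Cyp2a5 probes are set side by side because the genes are close copies, and the capitals mark where the 2 windows differ. The Cyp2a4 window lies at chr7:27099994-27100023 and the Cyp2a5 window at chr7:27628169-27628198, both on the plus strand of mm9.
Cyp2a4 probe: aggacacTTCgtagacttgcagaggatatt
Cyp2a5 probe: aggacacAGAgtagacttgcagaggatatt
They differ at 3 of 30 bases, and at 3 of the 38 bases over which the probes overlap. A probe window of Cyp2g1 lies between both genes, at chr7:27606111-27606140 on the plus strand of mm9.
Cyp2g1 probe: gtcagcttacataatctttgtctttgccct
The upstream sequences of the copies are shown because these genes moved together. They are from RefSeq (GRCm38.p6), chr7:26307072-26307191 for Cyp2a4 and chr7:26835218-26835337 for Cyp2a5, both plus strand and ending at or just before the annotated start. Capitals again mark differences.
Cyp2a4 upstream: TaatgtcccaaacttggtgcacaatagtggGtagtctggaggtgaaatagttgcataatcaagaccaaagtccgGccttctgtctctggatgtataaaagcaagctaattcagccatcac
Cyp2a5 upstream: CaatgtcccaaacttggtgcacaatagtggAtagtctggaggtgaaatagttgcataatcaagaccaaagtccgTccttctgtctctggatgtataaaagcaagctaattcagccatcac
Over the 249 bases upstream that could be compared, 4 differed, an identity of 98.4%. Both windows hold the letters TATAAA, which occur on either strand in 13.6% of the 32851 promoter windows in that table, each from 250 bases before to 50 after a start. All 3 Cyp2a4 probes list the accessions of both genes, so the values of the copies are uncertain between each other.

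Cyp2a4 stood at 14.75, 14.42 and 13.97 (log2 level) in the dorsal samples of replicates 1, 2 and 3, and at 8.30, 12.63 and 8.15 in the lateral samples. All 3 dorsal samples were high and so was the lateral sample of replicate 2, yet the groups did not overlap. The difference was 4.69 ± 0.65 (mean of 3 arrays ± SE; limma adjusted p = 0.0407). Here and below the SE comes from the fit over all 17 arrays. It is not the spread of the 3 arrays of 7 days, which differed by 6.45, 1.79 and 5.82. Cyp2g1 had the same shape, with dorsal levels of 14.08, 14.11 and 13.22 and lateral levels of 7.85, 12.44 and 7.39, a difference of 4.58 ± 0.62 (limma adjusted p = 0.0407). A second Cyp2g1 probe gave differences of 3.03, 0.04 and 0.91, so its probes disagree in size. Cyp2a5 differed by 3.99 ± 0.57 (limma adjusted p = 0.0407), from dorsal levels of 14.62, 14.14 and 13.91 and lateral levels of 9.06, 12.62 and 9.0. The 3 genes thus shared 1 pattern over the 6 samples, with replicate 2 differing least between walls. The highest levels were not those of 7 days: on 14 days replicate 1, Cyp2a4 stood at 16.95 in the dorsal and 15.66 in the lateral sample, Cyp2a5 at 17.02 and 15.92 and Cyp2g1 at 17.02 and 16.03. On the other 3 arrays of 14 days these genes were at 9.48 or less in both walls. Leaving out replicate 2 raised the differences to 6.13 for Cyp2a4, 6.03 for Cyp2g1 and 5.23 for Cyp2a5. It was the only 1 of the 17 arrays that could be left out without ending the calls of these 3 genes, whose adjusted p lies close to the threshold.

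Cyp2f2, another P450 of the airway and nasal lining at the same chromosome 7 locus, had dorsal levels of 12.44, 10.53 and 11.37 and lateral levels of 7.13, 8.23 and 6.10. It too was highest on 14 days replicate 1, at 16.78 and 14.25. Its 7 days groups did not overlap, but its difference of 4.30 ± 0.72 missed the threshold (limma adjusted p = 0.111). Cyp2a22, a further Cyp2a gene, differed by 1.68 ± 0.43 (limma adjusted p = 0.420) and was higher in the dorsal sample on all 3 arrays. In the opposite direction, Cyp2b13 differed by -1.30 ± 0.34 (limma adjusted p = 0.458). Across 33 measured P450 genes the median difference was 0.10, against -0.00094 over all genes. The 3 called P450 genes are members, beside 0.0265% of all genes called, and the list was chosen with them known. On all 3 arrays 9 members were higher and 6 lower in the dorsal sample, beside 14.9% and 16.9% of all genes.

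Genes of the olfactory mucosa's glands and supporting cells were followed as a list. Of 29 measured members, 3 passed the test, all higher in the dorsal sample, and 9 had an unadjusted p under 0.05 in that direction, where 3.2% of all genes did (5.16% in either direction). Of the members, 14 were higher in the dorsal sample on all 3 arrays and 1 was lower on all 3, beside 14.9% and 16.9% of all genes. The list was chosen with the P450 result known, and is not independent evidence of its direction. Its median was 1.20, with medians of 0.40, 0.23 and 1.61 on the 3 arrays. The mean level of the list was 9.81, 10.15 and 9.26 in the dorsal and 7.92, 9.58 and 7.41 in the lateral samples of 7 days. It was 12.34 in the dorsal and 11.37 in the lateral sample of 14 days replicate 1. On 14 days replicate 4 the lateral sample was the higher, at 10.07 against 8.02 in the dorsal sample. Sult1c1, a sulfotransferase of the same tissue, stood at 12.80, 13.28 and 11.37 in the dorsal and 8.00, 11.78 and 8.10 in the lateral samples (difference 3.18 ± 0.67, limma adjusted p = 0.307). Gsta4, a glutathione transferase, stood at 12.01, 12.89 and 10.61 against 8.55, 11.68 and 7.89 (2.47 ± 0.68, limma adjusted p = 0.534). Both repeated the high lateral sample of replicate 2. Ces1d, a carboxylesterase, differed by 2.10 ± 0.74 and Ugt2a1, a glucuronosyltransferase of the olfactory lining, by 1.99 ± 0.87, and neither passed. Other secretory members lay at 0, among them Muc5b (0.10 ± 0.31) and Reg3g (0.06 ± 0.22).

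Markers of other cells that could carry these enzymes were read beside them. The 16 measured hepatocyte genes had a median difference of -0.05, and their mean level was 7.53 to 7.99 in the dorsal and 7.62 to 7.95 in the lateral samples; fibrinogen gamma (Fgg) was not above background in any 7 days sample. The 18 measured olfactory sensory neuron genes had a median difference of 0.16, and their median turned to -0.03 with the scanner's processed signals and to -0.08 with median centring. Among them Omp, the marker of mature olfactory neurons, differed by 0.18 ± 0.50, Adcy3 by 2.21 ± 0.55 (limma adjusted p = 0.399) and Ano2 by 1.40 ± 0.32 (limma adjusted p = 0.367). The 12 measured genes of olfactory ensheathing glia, the glia of the olfactory nerve, had medians of 1.01, -0.67 and 1.06 on the arrays. Their mean level was 12.17, 11.62 and 11.56 in the dorsal and 11.05, 12.49 and 10.41 in the lateral samples, against 8.72 to 9.63 at 4 days, so replicate 2 had the highest of the 3 lateral levels here as well. Their median was 0.65, and -0.01 with median centring. Whether cells of the nasal lining or nerve took part in the P450 result was not tested.

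**Figure D1:**
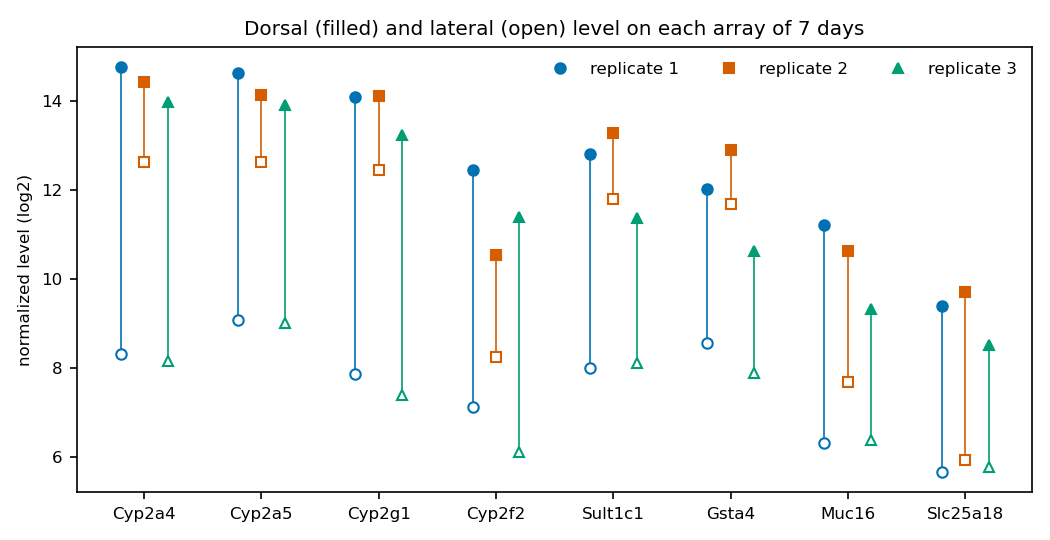
Normalized level (log2) of 8 genes in the dorsal (filled) and lateral (open) sample of each 7 days array, joined by a line; colours and shapes mark the replicate. On each array the dorsal sample lies above the lateral sample for every gene plotted, but across arrays the groups overlap for Sult1c1 and Gsta4. The lateral sample of replicate 2 is the highest of the 3 for each P450 gene, Sult1c1 and Gsta4.

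Muc16, a membrane-bound mucin of moist epithelia, had the smallest p of all genes at 7 days. Its dorsal samples stood at 11.20, 10.63 and 9.31 and its lateral samples at 6.30, 7.68 and 6.38, so the groups did not overlap. The difference was 3.59 ± 0.39 (limma adjusted p = 0.0137). It passed the test whichever of the 17 arrays was left out, and in 24 of 30 alternatives. Its probe reads as follows, shown as its first 30 bases (mm9, chr9:18299986-18300015, minus strand).
Muc16 probe: cgtcatcgtctagcttattatttgtctcac
At the earlier times Muc16 lay near background in both walls, with mean differences of -0.04 at 8 hours, -0.17 at 1 day, -0.07 at 2 days and 0.25 at 4 days. At 14 days 1 array, replicate 1, had 13.91 in the dorsal and 12.23 in the lateral sample, and the others were at 7.33 or less. The difference of 7 days from the mean of the other times was 3.53 ± 0.43 (limma adjusted p = 0.0520).

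Slc25a18, a mitochondrial glutamate carrier found in astrocytes, stood at 9.39, 9.71 and 8.51 in the dorsal samples. In the lateral samples it was at 5.65, 5.93 and 5.76, well above background on 1 array only. Unlike that of the P450 genes, its lateral level hardly varied, but it lay near background, so the size of the difference is uncertain. Slc25a18 differed by 3.42 ± 0.46 (limma adjusted p = 0.0407), by 5.45 with the scanner's processed signals and by 2.63 with quantile normalization. It remained called on leaving out 1 day replicate 2 or 3, 4 days replicate 1 or 2 or 7 days replicate 3, and was lost on leaving out any of the other 12 arrays (adjusted p over all alternatives 0.0101 to 0.694). Slc25a18 was also higher in the dorsal wall on both arrays of 8 hours and 2 days and on all 4 of 14 days, with mean differences of 1.48, 2.17 and 1.67. It had no common direction at 1 day (0.50, 1.28 and -1.15) or 4 days (0.79, -1.45 and -0.22).

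A pair of probes without a gene symbol completed the called set. The transcript ENSMUST00000148936 (mm9, chr2:90688147-90688206, plus strand) had dorsal levels of 9.90, 7.42 and 8.92 and lateral levels of 6.51, 6.06 and 6.76, well above background on 1 lateral array only, a measured difference of 2.30 ± 0.31 (limma adjusted p = 0.0407). An unnamed probe, A_52_P102630, was the 1 feature lower in the dorsal wall. Its sequence is given because no name identifies it (mm9, chr12:110890293-110890352, plus strand).
unnamed probe: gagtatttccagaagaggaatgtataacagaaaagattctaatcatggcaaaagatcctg
Its dorsal samples stood at 6.98, 6.38 and 8.97 and its lateral samples at 11.45, 9.85 and 10.05, a difference of -3.01 ± 0.42 (limma adjusted p = 0.0407). At the other times its mean difference was between -0.21 and 0.07. The transcript stayed called only without 7 days replicate 2, and the probe only without 7 days replicate 3, of the 17 arrays left out in turn.

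Of the 7 adjusted p values, 6 are 0.0407, close to the threshold. Without 7 days replicate 1, 2 or 3 the calls numbered 11, 19 and 18, of which 1, 5 and 3 were among the 7. Leaving out any 1 of the 14 arrays of other times left 1 or 2 calls. Centring arrays on their median in place of loess gave 3 calls, 1 higher and 2 lower, and moved the median of all genes to -0.21; the scanner's processed signals and quantile normalization gave 0. With the 3 arrays of 7 days alone, limma called 0 genes, with 1844 at an unadjusted p under 0.05, and an exact sign-flip permutation test of 3 arrays cannot give a two-sided p below 0.25.

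**Figure D2:**
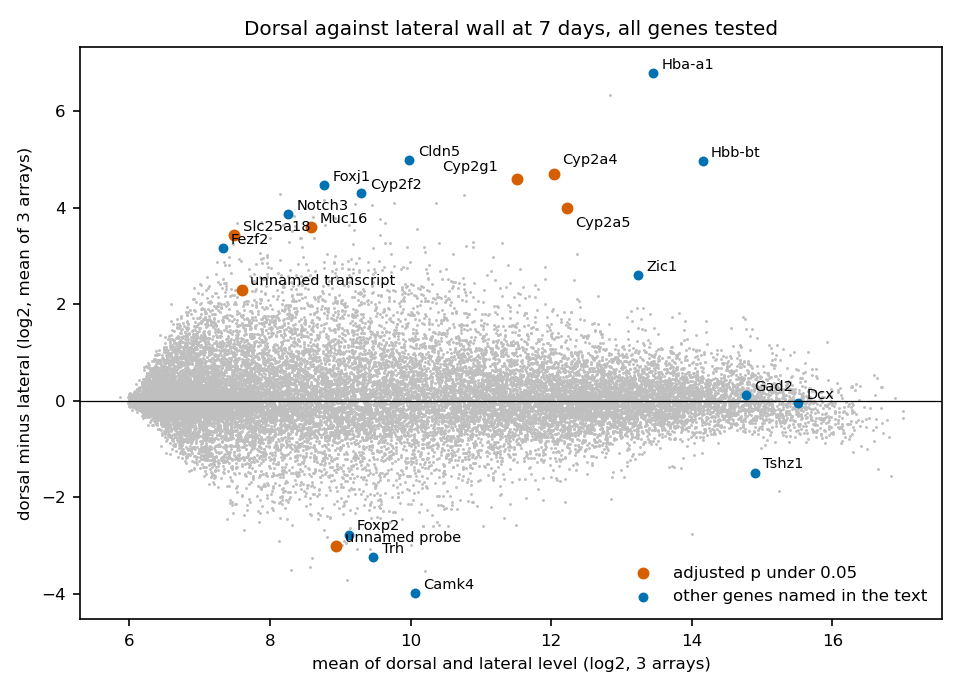
Dorsal minus lateral difference (log2, mean of 3 arrays) against the mean level (log2) for every gene tested at 7 days. Orange points are the 7 features with a limma adjusted p under 0.05, which are not those with the widest differences; blue points are other genes named in the text.

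Below the threshold, the values of many glial genes lay on the dorsal side. Of 16 astrocyte genes, 0 passed the adjusted test, 5 had an unadjusted p under 0.05 higher in the dorsal sample and 0 lower, and 9 were higher on all 3 arrays and 1 lower. Of all genes, 3.2% had an unadjusted limma p under 0.05 higher in the dorsal sample and 1.95% lower. On all 3 arrays 14.9% of all genes were higher and 16.9% lower. The counts of each list that follows are to be read beside these shares. Their median difference was 1.05, with 1.07, 1.53 and 1.24 on the 3 arrays, and 0.35 with median centring. Mlc1, a membrane protein of astrocyte endfeet, stood at 13.26, 14.33 and 11.57 in the dorsal and 11.81, 12.19 and 10.38 in the lateral samples. The ranges of the groups overlapped, but on each array the dorsal sample was higher (1.59 ± 0.33, limma adjusted p = 0.311). Gfap, the intermediate filament of astrocytes, differed by 1.35, 1.65 and 2.18 on the arrays, and was well above background in 1 of 3 lateral samples (1.73 ± 0.59, limma adjusted p = 0.788). Slco1c1, a thyroid hormone transporter, differed by 4.05, 4.77 and 1.28 (3.37 ± 1.16, limma adjusted p = 0.792). Aqp4 (1.54 ± 0.77) and the glutamate transporter Slc1a3 (1.03 ± 0.45) were also higher on all 3 arrays, while glutamine synthetase (Glul) had -0.41, -0.32 and -0.17.

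Mlc1 had dorsal values of like size at other times, with mean differences of 1.68, 1.23, 2.43, 1.11 and 0.91 at 8 hours and 1, 2, 4 and 14 days, and 7 days differed from their mean by 0.12 ± 0.37. Slc1a3 likewise had 0.62 to 2.27 at the other times. The 17 radial glia and stem cell genes shared 8 members with other lists, among them Gfap and Slc1a3, and had a median of 0.73, with 9 higher and 1 lower on all 3 arrays. Within that list Sox2 (-0.35 ± 0.41) and Nes (-0.25 ± 0.50), general progenitor markers, lay on the other side. Prom1, a membrane protein of progenitors and ependyma, differed by -0.76 ± 0.29 (limma adjusted p = 0.883).

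Signalling genes were uneven. Notch3, a Notch receptor known from vessel-wall cells and neural progenitors, stood at 11.12, 11.12 and 8.30 in the dorsal samples and at 6.38, 6.42 and 6.18 in the lateral samples. The groups did not overlap, but the lateral signal was well above background on 1 array only, so the size is uncertain. The measured difference of 3.86 ± 0.64 missed the threshold (limma adjusted p = 0.108); it was called without 7 days replicate 3 (4.73, limma adjusted p = 0.0381). Heyl, a target of Notch signalling, differed by 1.98, 2.54 and 1.92. The ligands Dll1 (-0.99 ± 1.17) and Jag1 (-1.11 ± 1.04) were lower in the dorsal sample on all 3 arrays and the receptor Notch1 differed by 0.87 ± 0.61. Of 16 Notch pathway genes, 0 passed the test, and their median was 0.23.

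Of 11 Shh pathway genes measured, 0 passed. Ptch1, receptor and target of Shh, differed by 2.30, 0.87 and 1.60 (1.59 ± 0.61) and the co-receptor Boc by 2.64, 1.97 and 0.96. No lateral sample had Boc above background. On the mean of the 3 arrays Boc was at least 3.30-fold higher in the dorsal samples, a bound that does not hold for replicate 3. The 20 BMP and TGF-beta genes had a median of 0.37, which turned to -0.03 with median centring. Their smallest p was that of the ligand Tgfb2, at -3.24, -1.03 and -1.14 (-1.80 ± 0.68, limma adjusted p = 0.877). The 19 Wnt pathway genes, with 0 calls, had a median of 0.02, which turned to -0.07 with median centring and with quantile normalization.

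The factors that mark wall identity were read next. Of 18 pallial factors measured, 0 passed the adjusted test, 3 had an unadjusted p under 0.05 higher in the dorsal sample, and 7 were higher and 1 lower on all 3 arrays. Fezf2, a factor of pallial progenitors and deep cortical neurons, stood at 9.21, 9.61 and 7.90 in the dorsal samples and was above background in no lateral sample, at 5.84, 5.70 and 5.69. On the mean of the 3 arrays it was at least 7.52-fold higher in the dorsal samples, with measured values 3.16 ± 0.89 apart (limma adjusted p = 0.550). This bound is for the mean and not for each array, as replicate 3 stood at 7.90 against 5.69. Pax6 differed by 1.25, 0.94 and 1.08 (1.09 ± 0.47) and Dmrta2 by 1.05, 0.82 and 2.26 (1.38 ± 0.52). Other members of the list, Emx1 (0.34 ± 0.89), Emx2 (-0.15 ± 0.33) and Eomes (0.15 ± 0.81), differed by less than their SE. Emx1 turned to -0.08 with median centring. Fezf2 had similar differences of 1.85 to 4.75 at the other times, whereas Dmrta2 had 2.66 to 4.30 up to 4 days and -0.87 at 14 days.

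The Zic factors gave the other large dorsal values. Zic1, a zinc finger factor, stood at 14.69, 14.86 and 14.06 in the dorsal and 11.25, 12.45 and 12.13 in the lateral samples, with no overlap (2.60 ± 0.79, limma adjusted p = 0.641). Zic2 stood at 11.82, 11.74 and 10.98 against 9.39, 10.84 and 6.69 (2.54 ± 1.01, limma adjusted p = 0.910). Zic1 differed by 1.60 to 2.52 at each other time, and 7 days differed from their mean by 0.41 ± 0.87. Zic5 (0.02 ± 0.35) did not have the same direction on all arrays, and the list of 8 Zic and septal factors had a median of 0.02, which turned below 0 with median centring and with quantile normalization.

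Subpallial factors were mixed, with mean differences from -2.77 to 1.83. Dlx2, needed for interneuron production, stood at 13.48, 12.97 and 13.76 in the dorsal samples and at 13.75, 13.23 and 13.73 in the lateral samples. The ranges overlapped almost fully, at -0.17 ± 0.27. At 8 hours the arrays had -4.37 and -3.60, at 1 day -3.98, -3.90 and -3.95, and at 2 days -2.46 and -2.95, while at 4 days they had -0.37, -0.27 and 0.33. At 8 hours the dorsal level was 6.76 and 7.35 and the lateral level 11.13 and 10.96; at 14 days the differences were -1.48, -0.30, -1.64 and -0.53. The difference of 7 days from the mean of the other times was 2.18 ± 0.30 and did not pass (limma adjusted p = 0.0930). Of 19 subpallial genes measured, 0 passed, 1 was higher and 5 were lower in the dorsal sample on all 3 arrays, and the median was -0.23. Vax1 (-0.49, -2.98 and -2.19) and Foxp2 were the members with an unadjusted p under 0.05.

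**Figure D3:**
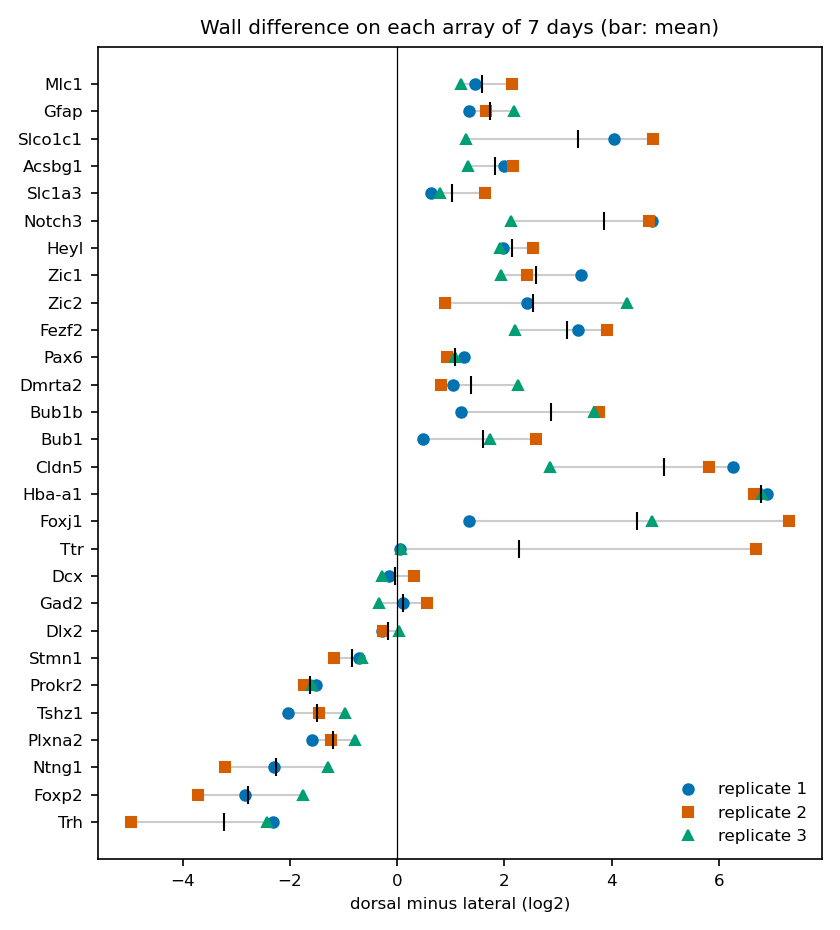
Dorsal minus lateral difference (log2) of 28 genes on each 7 days array; points are arrays, black bars the mean and grey lines the range. The astrocyte, Zic and pallial genes plotted lie to the right on all 3 arrays. They are chosen members, and others of their lists that do not, such as Glul, Emx2 and Zic5, are not plotted. Dcx, Gad2 and Dlx2 lie around 0, and Tshz1, Plxna2, Ntng1, Foxp2 and Trh lie to the left. None of the genes plotted passed an adjusted p of 0.05.

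Genes of migrating and maturing neurons were high in both samples. Dcx, a microtubule protein of neuroblasts, had mean levels of 15.5 in both and a difference of -0.04 ± 0.55. The mean level over 15 neuroblast genes was 13.30 to 13.73 in the dorsal and 13.80 to 13.98 in the lateral samples. Of these genes 0 passed the test, 1 was higher and 6 were lower in the dorsal sample on all 3 arrays, with a median of -0.32. Prokr2, a receptor that guides neuroblasts into the olfactory bulb, differed by -1.52, -1.74 and -1.59, with dorsal levels of 10.29, 10.47 and 11.71 and lateral levels of 11.81, 12.21 and 13.30 (-1.61 ± 0.55, limma adjusted p = 0.783). Stmn1, a microtubule regulator, differed by -0.70, -1.18 and -0.65 (-0.84 ± 0.24, limma adjusted p = 0.641).

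Of 17 inhibitory neuron genes 0 passed, and 5 were higher and 3 lower in the dorsal sample on all 3 arrays, beside 14.9% and 16.9% of all genes. The count of lower members is near that share. Gad1 (-0.33 ± 0.65) and Gad2 (0.11 ± 0.54), which make GABA, had signs that differed between arrays, and the median of the list was -0.08. Its member with the smallest p was Tshz1, a factor of olfactory bulb granule neurons, at 13.91, 14.25 and 14.30 in the dorsal and 15.95, 15.71 and 15.27 in the lateral samples (-1.49 ± 0.43, limma adjusted p = 0.579). Calb2, which marks calretinin interneurons, went the other way with 3.00, 3.14 and 0.81 (2.32 ± 1.45). Th, the marker of dopaminergic interneurons, had 3.24, -0.03 and -2.43 and so no common direction, and 0 of 11 dopaminergic genes had an unadjusted p under 0.05. Slc17a6, a vesicular glutamate transporter, had 1.91, 2.06 and 3.31 (2.43 ± 1.18, limma adjusted p = 0.999).

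Among features with a gene symbol, an unadjusted p under 0.01 and 1 sign on all 3 arrays, the 10 with the widest lateral excess were headed by Camk4, a calcium-dependent kinase of neurons. Camk4 stood at 7.71, 8.06 and 8.42 in the dorsal samples and at 10.997, 11.983 and 13.165 in the lateral samples. The groups did not overlap (-3.98 ± 0.99, limma adjusted p = 0.399). Other Camk4 probes gave mean differences of -1.62 and -0.57 and so disagree in size. Foxp2, a factor of striatal and other projection neurons, stood at 7.59, 6.47 and 9.13 against 10.43, 10.19 and 10.89 (-2.77 ± 0.90, limma adjusted p = 0.726). Pbx3, a homeodomain factor, stood at 12.36, 12.62 and 12.92 against 15.44, 15.49 and 15.22 (-2.75 ± 0.69, limma adjusted p = 0.420). A second, dimmer Pbx3 probe had -0.30. Trh, the precursor of thyrotropin-releasing hormone, stood at 8.25, 7.18 and 8.13 against 10.57, 12.15 and 10.55 (-3.23 ± 0.75, limma adjusted p = 0.367).

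The remaining genes of this group were Rnf182, a ubiquitin ligase (-3.52 ± 0.92), the receptor Gpr146 (-3.25 ± 0.71), Frmd7, a regulator of neurite growth (-2.69 ± 0.56), Mfsd3 (-2.60 ± 0.73), Limch1 (-2.60 ± 0.77) and the chemokine Ccl19 (-2.59 ± 0.65). None passed the test, with limma adjusted p of 0.307 to 0.626. A second Gpr146 probe, above background in 1 lateral sample only, had -0.07, and a further Limch1 probe had 0.72. Camk4, Pbx3 and Frmd7 were lower in the dorsal wall on average at 4 and 14 days too, with means of -2.89 and -1.87, -2.62 and -2.47, and -1.91 and -1.34. At 8 hours their mean differences were 0.71, 0.33 and 1.53. Trh instead had 0.11 at 4 days and 1.76 at 14 days.

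Axon guidance genes contained more members on the lateral side. Of 33 measured, 0 passed the adjusted test, 6 had an unadjusted p under 0.05 lower in the dorsal sample, where 1.95% of all genes did, and 1 had it higher. In all, 9 were lower and 4 higher on all 3 arrays, and the median was -0.16. The 6 were Ntng1, a membrane-bound netrin (-2.29, -3.20 and -1.28), the semaphorin receptors Plxna2 (-1.58, -1.23 and -0.79) and Nrp2 (-1.41, -1.14 and -2.17), the semaphorins Sema3c (-3.42, -0.91 and -0.20) and Sema6a (-3.98, -0.66 and -2.35), and Ntn1 (-1.45, -5.10 and 0.71). Sema3c rested mostly on replicate 1 and Ntn1 on replicate 2. The netrin receptor Dcc was the member on the dorsal side (0.87, 2.16 and 0.61). Plxna2 and Nrp2 had similar values at 4 days (-1.48 and -1.54) and 14 days (-1.15 and -1.23).

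The median of the cell division genes lay on the dorsal side, but its members were uneven. Of 20 proliferation genes, 0 passed, 2 had an unadjusted p under 0.05 higher in the dorsal sample, and 8 were higher and 1 lower on all 3 arrays. The median was 0.69, with 0.46, 0.62 and 0.64 on the arrays. Bub1b, a kinase of the spindle checkpoint, stood at 7.17, 9.61 and 9.58 in the dorsal and 5.97, 5.84 and 5.92 in the lateral samples, where it was above background on 1 array (2.88 ± 0.63, limma adjusted p = 0.334). Its partner Bub1 differed by 0.49, 2.58 and 1.73 (1.60 ± 0.51). Mki67 (0.20 ± 0.79), Top2a (0.24 ± 0.69) and Pcna (0.22 ± 0.60), the usual markers of cycling cells, lay near 0. With median centring Mki67 turned to -0.33 and Top2a to -0.05. At the other 5 time points the median of the list was below 0, between -1.91 and -0.19. The difference of 7 days from their mean was 3.92 ± 0.70 for Bub1b (limma adjusted p = 0.214) and 2.42 ± 0.56 for Bub1 (limma adjusted p = 0.472).

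Choroid plexus and ependymal genes had their highest mean level of 7 days in 1 sample, the dorsal sample of replicate 2. Transthyretin (Ttr), the main product of the choroid plexus, stood at 6.67, 16.33 and 6.63 in the dorsal and 6.60, 9.64 and 6.56 in the lateral samples, so replicate 2 alone was high. The median of the 10 choroid plexus genes was 4.34 on that array and 0.05 and 0.07 on the others, and their mean dorsal level there was 11.50, against 7.09 and 7.15. Foxj1, the factor of ciliated ependymal cells, stood at 8.37, 13.86 and 10.79 in the dorsal samples and 7.02, 6.55 and 6.03 in the lateral samples (4.47 ± 1.34, limma adjusted p = 0.641). It was thus higher in the dorsal sample on all 3 arrays, by 1.35, 7.31 and 4.75. The 16 ependymal genes had a median of 1.68 on replicate 2 and -0.01 and -0.03 on the others. Their median over all arrays was 0.50, and -0.06 without replicate 2. Choroid plexus and ependymal markers were thus raised in the dorsal sample of the replicate that differed least in the P450 genes; their part in any result was not tested.

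Blood and vessel genes gave the widest dorsal values. Hba-a1, an alpha globin, stood at 17.24, 16.41 and 16.86 in the dorsal and 10.34, 9.76 and 10.06 in the lateral samples, with no overlap and arrays that differed by 6.90, 6.65 and 6.80. The mean of 6.79 ± 1.70 did not pass (limma adjusted p = 0.509); the arrays of 8 hours had like values (5.01 and 5.23), as had those of 2 days (7.06 and 6.70). The arrays of 1 day had 6.93, 7.70 and -0.51, those of 4 days 0.32, 0.95 and -7.23. The copies Hba-a1 and Hba-a2 (6.33 ± 1.74) can share signal, and 3 further probes of the beta globin Hbb-bt had 6.36, 5.61 and 6.74 beside 4.97 for the brightest. Slc4a1, the anion exchanger of red cells, differed by -0.08 ± 0.71, and Alas2, the first enzyme of heme synthesis in red cells, by 3.01, 0.16 and 4.49 on the arrays. Of 10 erythroid genes measured, 4 were higher on all 3 arrays, and the median was 0.25.

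Cldn5, the tight junction protein of brain endothelium, stood at 13.70, 13.84 and 9.87 in the dorsal and 7.43, 8.02 and 7.02 in the lateral samples (4.98 ± 1.32, limma adjusted p = 0.469). Cdh5, another endothelial adhesion protein, differed by 1.82, 0.89 and 0.81, whereas Pecam1 (0.08 ± 0.56) and Flt1 (0.05 ± 0.25) lay near 0. Rgs5, a pericyte gene, was lower in the dorsal sample on replicates 1 and 2 (-3.38 and -2.58) and 0.10 on replicate 3. The 18 endothelial and mural genes had a median of 0.50 and 0 calls.

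Microglial genes were at high levels in both samples. The mean over 16 of them was 13.94 to 14.46 in the dorsal and 12.95 to 13.96 in the lateral samples. All 16 had a mean difference above 0, between 0.18 and 1.21, 8 were higher on all 3 arrays, and the medians of the arrays were 1.52, 0.76 and 0.00. None of the 16 had an unadjusted p under 0.05, and with median centring their median was -0.10. The 14 meningeal and fibroblast genes had a median of 1.95 on replicate 3 alone, where Igf2 differed by 6.39, against -0.79 and -0.27 on the others. Their mean level was 10.37, 11.30 and 9.42 in the dorsal and 10.69, 11.50 and 7.42 in the lateral samples, against 7.27 to 7.74 at 4 days. Replicate 3 thus had the lowest dorsal level, and its lateral sample alone lay within the range of 4 days. Y-linked genes were lower in the dorsal sample of replicate 1 (Ddx3y -3.25) and higher on replicate 3 (1.22). The part of these cells, and of the animals' sex, in the wall differences was not tested.

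Among further genes with wide dorsal values, Etv5, an ETS factor, differed by 6.11, 2.52 and 4.18 on its brightest probe (4.27 ± 1.00, limma adjusted p = 0.367), with 1 of 3 lateral samples well above background, and by -0.30 on a second probe, so its probes disagree in direction. Pcp4l1, a relative of the calmodulin regulator Pcp4, stood at 13.78, 14.65 and 10.21 against 7.77, 11.09 and 7.02 (4.25 ± 0.85, limma adjusted p = 0.277). Myelin and precursor genes were mixed: Olig1 differed by 1.65, 1.44 and 1.65 and Olig2 by 2.86, 0.89 and 1.76, while Mobp had 0.42, -5.24 and -0.55. Of 18 oligodendrocyte genes, 0 passed. The 12 reference genes had a median of 0.18, with Actb at -0.03 ± 0.23 and Gapdh at 0.40 ± 0.84.

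**Figure D4:**
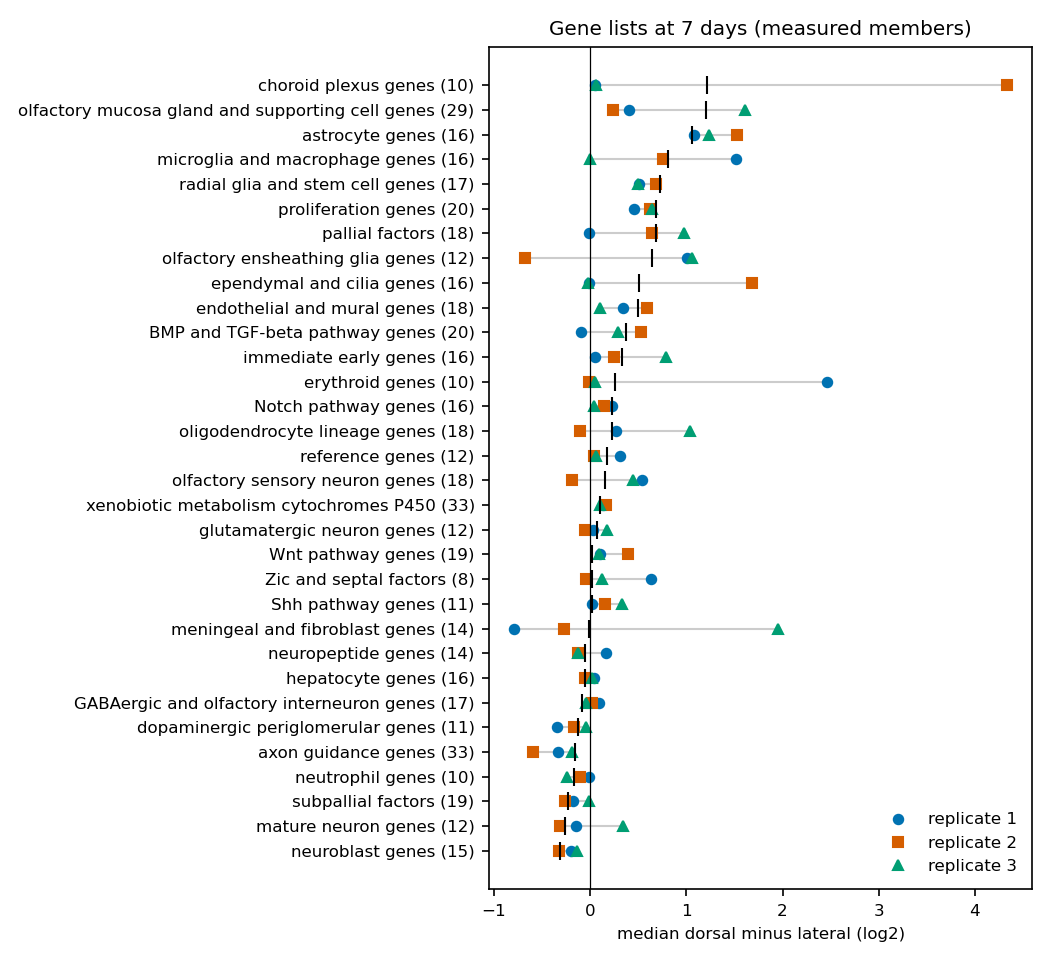
Median dorsal minus lateral difference (log2) of each gene list at 7 days, on each array (points) and for the mean of 3 arrays (black bar), with the number of measured members in brackets. Astrocyte, radial glia and proliferation genes lie above 0 on all 3 arrays. So do several other lists, among them the reference genes (0.31, 0.04 and 0.06), so that sign is not particular to them. Choroid plexus and ependymal genes stand out on replicate 2, erythroid genes on replicate 1 and meningeal genes on replicate 3.

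The 3 arrays agreed closely in levels and little in differences. Levels correlated between arrays at r of 0.91 to 0.93 across genes in each wall, but the wall differences at only 0.077 to 0.095, where genes are not independent replicates. The dorsal and lateral levels of the same array correlated about as highly, at 0.912, 0.906 and 0.951 on replicates 1, 2 and 3. The agreement in levels is thus not particular to a wall. Of all genes, 14.9% were higher and 16.9% lower in the dorsal sample on all 3 arrays. A difference of at least 1 log2 unit on all 3 arrays was seen for 295 genes in the dorsal direction (1.12%) and for 104 in the lateral direction (0.394%). The share of probes well above background was 58.9 to 72.2% per sample.

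Whether the wall difference at 7 days departs from other times was asked in 3 ways. Against the mean of the other 5 times, against 4 days and against 14 days, limma called 0, 0 and 0 genes, with 1293, 1024 and 1622 at an unadjusted p under 0.05 (4.9, 3.87 and 6.14% of genes). At the other times alone, limma called 100 genes (0.378%) after 8 hours, 292 (1.1%) after 1 day, 48 (0.181%) after 2 days, 0 after 4 days and 6 (0.0227%) after 14 days; these counts are not a test of a difference from 7 days. Each 7 days array shared its slide with the 4 days array of the same number, which allowed a comparison within slides. There, 7 minus 4 days was 4.73, 2.44 and 2.85 for Muc16 and 6.44, 0.94 and 5.82 for Cyp2a4 on the slides of replicates 1, 2 and 3. Slc25a18 had 2.94, 5.23 and 2.96 and the unnamed probe -4.25, -3.25 and -1.18. These genes were chosen for their 7 days values, so the signs are a description. With the slide as a fixed block over the 10 arrays of these slides, chosen after the data were seen, 0 genes were called for 7 against 4 days.

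Genes called at the earlier times mostly lacked a common sign at 7 days. Of the 183 genes higher in the dorsal wall at 1 day, 41 (22.4%) were higher on all 3 arrays of 7 days, beside 14.9% of all genes, and of the 106 lower ones 54 (50.9%) were lower, beside 16.9%. Of the genes called at 8 hours, 16 of 74 higher (21.6%) and 6 of 26 lower ones (23.1%) had the same sign on all 3 arrays, and of those called at 2 days 10 of 39 (25.6%) and 3 of 9 (33.3%). The opposite sign on all 3 arrays was seen for 12 of the 74 (16.2%) and 2 of the 26 (7.69%), for 21 of the 183 (11.5%) and 13 of the 106 (12.3%), and for 7 of the 39 (17.9%) and 0 of the 9. The median difference at 7 days was -0.02 for the genes higher at 8 hours, 0.10 for those at 1 day and -0.01 for those at 2 days. For the lower genes it was -0.03, -0.27 and -0.02, so those of 1 day kept the most of their direction. The arrays differ, but a constant dye effect of a probe would be shared, so these shares are a description. Among genes called at an earlier time, those with the widest differences there were read at 7 days. Dct, an enzyme of melanin synthesis also found in telencephalic progenitors, went from 5.08, 4.66 and 4.76 at 8 hours, 1 day and 2 days to -0.68 ± 0.62. Pcp4, with 4.26 and 5.32 at 1 and 2 days, had -0.60, -1.18 and -1.17 on the arrays of 7 days. Dysf had 4.65 at 8 hours and 1.05 ± 0.50 at 7 days, and the chemokine Cxcl13 4.96 at 2 days and 0.03 ± 0.57, with no 7 days sample above background. Cenpb, a centromere protein, had -4.80 at 1 day and 0.16, 1.27 and 2.42 on the arrays of 7 days. Lama1, a laminin chain, had 4.37 at 8 hours and 0.82 ± 0.66 at 7 days, and Lgi2 5.40 at 1 day and -0.61 ± 1.03.

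**Figure D5:**
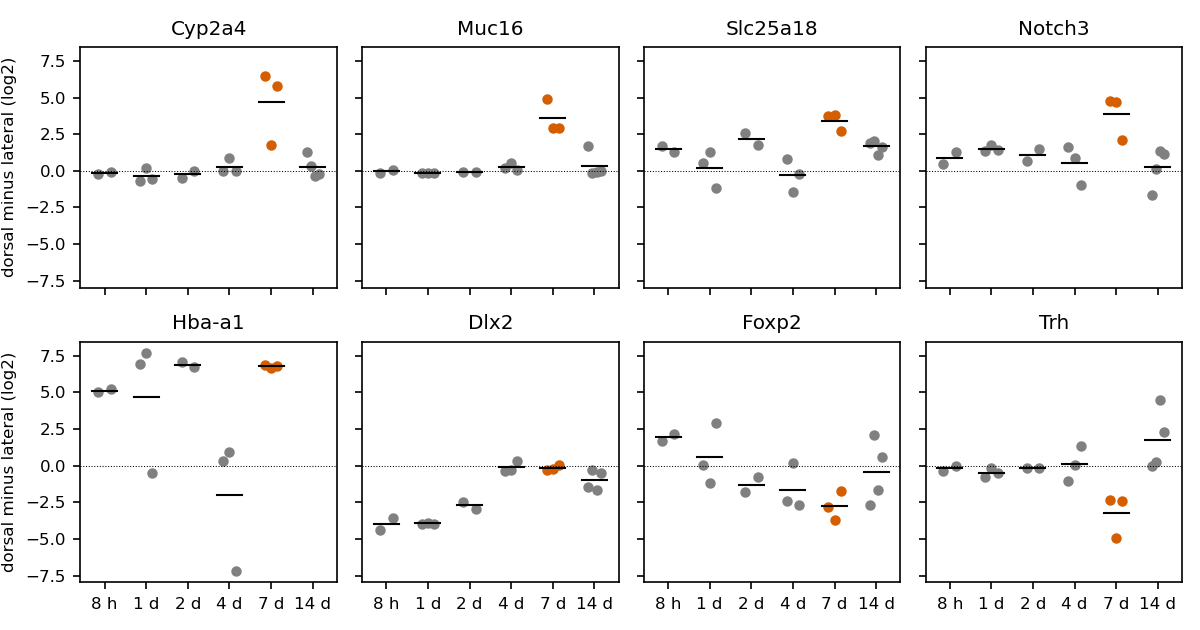
Dorsal minus lateral difference (log2) of 8 genes on every array with a value, by time after electroporation (h, hours; d, days); points are arrays, lines their mean, and 7 days is in orange. Cyp2a4 and Muc16 are above 0 on all 3 arrays of 7 days, Slc25a18 and Notch3 are above 0 at several times, Hba-a1 has no value at 14 days, and Dlx2 is near 0 at 4 and 7 days but below 0 on all arrays of the other times.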

How the data were processed

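Dorsal (Cy3) and lateral (Cy5) samples were hybridised together on 17 2-colour Agilent arrays, 3 of them of 7 days. Spot values are fluorescence intensity on a linear scale, which per the file headers the authors extracted with Feature Extraction (Agilent), version 10.5.1.1 on some arrays and 10.7.3.1 on others. Per the labels' protocols, cDNA was amplified by a global PCR service whose protocol is undisclosed before labelling, which can distort levels. The deposited value table holds log2 values of Cy3 over Cy5 with unstated normalization and was an alternative only; its direction was checked against the scanner's log10 ratio deposited in the same files.

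Background was corrected with normexp (offset 50). Within each array a loess curve, with weight 0 for controls, was taken off the log ratios, and Aquantile then scaled the mean intensities. Spots with an outlier flag were left out, and no spot was saturated. A probe was kept (36771 were) if 2 or more arrays had it well above background in a channel, and the brightest represented a gene; 26876 of 41174 probes were named through an accession in a RefSeq table of GRCm38.p6, 3238 through a symbol, and 11060 kept the name in the files. Levels are normalized log2 intensities, so levels of different genes were not compared. Differences are dorsal minus lateral, with the SE of 1 fit over all 17 arrays with a mean per time point (limma 3.58.1, R 4.3.3; figures with matplotlib and pandas under Python). P-values are two-sided, with Benjamini-Hochberg adjustment across the genes tested and a threshold of 0.05. "At least" folds set the brighter mean against the lowest signal well above background, and are open to dye bias. Scripts were tested on simulated data.

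The members and gene lists were chosen with earlier results of these data known. Genes were named by a rule: those called, the 10 widest in each direction among genes with an unadjusted p under 0.01 and 1 sign on all 3 arrays, the first 2 and the 2 smallest p of each list, the widest genes of earlier times, and relatives of called genes; other list members named were chosen after their values were seen. Same-numbered arrays did not deviate together, and slide equals scan.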

Additional observations from a re-analysis of the deposited data

How the results depend on the processing

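The 7 calls at 7 days became 0 with the scanner's processed signals, quantile normalization, the 3 arrays of 7 days alone, or without both arrays that stand apart (1 day replicate 1 and 14 days replicate 2), 1 with no filter or a trended robust prior, 3 with median centring, a stricter filter or the value table, and 15 with array weights. Without the 1 day and 14 days arrays, an alternative chosen after seeing the data, there was 1 call, which was not among the 7. Leaving out 1 array gave 1 to 19 calls. Against the mean of the other times the 0 calls became 1 with median centring or the mean over probes, 8 with array weights and 0 to 19 with 1 array left out. Against 4 days they became 0 to 8, and against 14 days 0 to 10 with 1 array left out and 1 with the processed signals, quantile normalization or the slide as a random block. The cause was not tested. With the replicate number as a block, 0 genes were called in each comparison; deviations of same-numbered arrays correlated at -0.0246 to 0.0328, so the numbers were not taken as pairs. The mean correlation of wall differences between arrays, 0.0876, was 0.0703 with the processed signals, 0.175 with median centring, 0.105 with the stricter filter, 0.0744 with the value table and 0.0771 to 0.0954 without 1 array. Of 33 list medians, 23 kept their sign with median centring and 28 to 33 under the other alternatives that change them.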

Other observations

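Among relatives of the called genes, no other mucin or mitochondrial carrier passed the limma test. Slc25a47, another mitochondrial carrier, differed by 4.97, 7.01 and 0.29 (4.09 ± 1.58), and Muc4, a membrane-bound mucin, by -0.55, -0.76 and -0.38 (-0.56 ± 0.45). The immediate early genes, which respond to stimulation and to tissue handling, were at high levels in both samples, with Fos at -0.06 ± 0.53 and Junb at 0.38 ± 0.35. Of 16, 6 were higher in the dorsal sample on all 3 arrays and 0 lower, 0 passed the limma test, and 0 had an unadjusted p under 0.05. Arc, a synaptic activity gene, had -5.34, -4.50 and 3.51. The median of the list was 0.33, and -0.49 with median centring. The 10 neutrophil genes had a median of -0.17, with 0 higher and 5 lower in the dorsal sample on all 3 arrays. For both lists the shares of all genes were 14.9% higher and 16.9% lower on all 3 arrays.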
